A study of Mus musculus with 16 samples.

Results

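The cytoplasmic ribosomal protein genes of the mouse encode the protein parts of the large subunit (symbols Rpl and Rplp) and the small subunit (symbols Rps and Rpsa) of the ribosome. They were picked by symbol among the gene IDs of the deposited tables: protein-coding genes named Rpl or Rps with a number and at most 1 letter, with Rplp0 to Rplp2 and Rpsa, and without pseudogenes, Rps6k kinases and Rps19bp1. This gave 80 of the 55359 gene IDs, 49 of the large and 31 of the small subunit, of which 77 had enough counts to be tested. The study sequenced total RNA from cortices of mouse fetuses (gestational day 16) after parental alcohol drinking, in 16 libraries. The groups were fetuses with an exposed father (paternal), an exposed mother (maternal), both parents exposed (dual) or neither (control), each with 2 male and 2 female libraries. Strain, dose, timing of the exposure and the number of litters are not given in the labels. The labels do not say whether the 2 libraries of a group came from separate animals. The p-values set group differences against the spread among these libraries, and that spread may be technical.

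Every growing cell makes ribosomal proteins in matching amounts, and their mRNAs are among the most abundant of a cell. In vertebrates most of these mRNAs begin with a run of pyrimidines, the terminal oligopyrimidine tract, through which mTORC1 and the RNA-binding protein Larp1 set how strongly they are translated. Their genes are compact, and many copies of their mRNAs have been written back into the genome as processed pseudogenes. In the developing cortex, dividing progenitors and growing neurons both build ribosomes in large numbers, and inherited loss of single ribosomal proteins in human patients mainly harms red cell formation.

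Male libraries held 15336566 to 19966696 counts each, and every female library was deeper, at 26134287 to 35218456. The female dual libraries stood apart. Gene models classed as TEC (awaiting experimental evidence) or sense-intronic, which lie largely within introns, took 0.872% and 0.86% of their counts, where all other females had 0.325% to 0.391% and males had 0.28% to 0.534%. Malat1, a nuclear RNA, was at 5672 and 5847 CPM (counts scaled to a common library total with TMM factors) in the female dual libraries and at 2704 to 5042 CPM in the other 14. The share of counts from mitochondrial mRNA was likewise highest there, at 1.51% and 1.59%, against 0.921% to 1.37% elsewhere. Unnamed gene IDs took up to 17.8% of the counts of a male library. The 9 cortical identity markers, Emx1 and Tbr1 among them, were detected and summed to 2393 to 2948 CPM per library. Ribosomal protein genes took 1.5% to 2.04% of all counts of a library.

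The bases around the start of transcription are shown for 6 members because a terminal pyrimidine tract would lie there. The first 4 (Rps27, Rpl18, Rps7, Rpsa) were called lower in female dual cortex, and the last 2 (Rps12, Rps25) were not. Each window runs from 15 bases before to 15 bases from the annotated start, on the strand of the gene (RefSeq, GRCm38.p6), and capitals mark its longest run of C or T, or the first of several equally long ones. The marked run spans the annotated start in Rps27, lies wholly before it in Rps7 and Rps25 and after it in Rpl18, Rpsa and Rps12. In Rps7 an equally long run also lies after the start. In Rps12 and Rps25 the run reaches the edge of the window, so its full length is not shown.
Rps27 (chr3:90213634-90213663, minus strand): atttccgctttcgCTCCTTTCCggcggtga
Rpl18 (chr7:45718056-45718085, plus strand): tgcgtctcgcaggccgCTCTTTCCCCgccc
Rps7 (chr12:28635939-28635968, minus strand): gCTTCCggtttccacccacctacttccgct
Rpsa (chr9:120127751-120127780, plus strand): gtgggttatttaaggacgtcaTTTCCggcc
Rps12 (chr10:23787195-23787224, minus strand): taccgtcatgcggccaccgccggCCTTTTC
Rps25 (chr9:44407699-44407728, plus strand): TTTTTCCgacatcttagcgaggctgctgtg
Of the 80 members, 60 were matched in the promoter table. A run of at least 6 pyrimidines stood in the 30-base window of 37 of them (61.7%), against 32.7% of the 27025 genes of the table. In the window from 250 bases before to 50 bases after the start, CCGGAAG, a core of Ets-family motifs searched on both strands, was found in 25 members (41.7%) against 9.93% of all genes. AAGATGG, a core of the YY1 motif searched likewise, was found in 9 (15%) against 7.28%. A gene listed with several starts counted for a run or motif if any of them had it. The sequences above show the first start listed. The pyrimidine run was present in 17 of 30 members called lower in female dual cortex (56.7%) and in 19 of 27 members that were tested and not called (70.4%). The share with a run was thus not higher among the members that fell, with no test made. The runs of Rps7 and Rpsa, at 5 bases, are below the minimum of 6 counted here.

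Levels of the members covered a wide range. Per kilobase of exon, the scale on which genes are compared here, the median of the 77 tested members was 118 CPM per kb, against 4.63 for the 15009 protein-coding genes tested, and 35 members lay in the top 1% and 68 in the top 5% of those genes. The exon length of a gene joins all its annotated exons, whichever transcript is made, so the order depends on annotated length as well as on counts. The highest were Rps15 (453 ± 54.1 CPM per kb, SD over the 16 libraries), a protein of the small-subunit head, and Rplp1 (416 ± 47.3) and Rplp0 (382 ± 42.1), which build the stalk that recruits elongation factors. Rps29 (343 ± 46), a zinc-binding protein of the small subunit, Rpl38 (283 ± 23.8) and Rpl4 (280 ± 16.7), which lines the exit tunnel, came next. The SDs of neighbours in this order overlapped. These SDs include differences between libraries that the members share, so they do not tell how well the rank of single genes is resolved.

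At the low end stood Rpl35a (26 ± 5.59 CPM per kb), Rps27l (19.2 ± 1.65), Rpl13a (11.1 ± 1.41), Rps10 (1.33 ± 0.241) and Rpl24 (0.769 ± 0.251), after Rps15a (35.1 ± 3.64). Rps15a, with 6270 annotated exon bases, and the highest member Rps15, with 630, lay much closer without division by length. Their means were 233 and 283 CPM in males and 207 and 288 CPM in females. Rps10 had 24 to 116 counts and Rpl24 6 to 39 counts per library, where Rplp0 had 8275 to 24805. In GENCODE M21, 46.99% of the exon bases of Rpl24 also belong to Gm28037 on the same strand, 32.83% of those of Rpl13a to Gm45713, and 28.73% of those of Rps10 to RPS10-NUDT3 and other genes. The low values of these 3 members are therefore uncertain as measures of their mRNA. Rpl35 (66.16%, with Wdr38 on the opposite strand the largest overlap) and Rpl23a (62.34%, with Tlcd1) also share much of their exons. In all, 11 members share over 20% of their exon bases with another gene and 45 share none.

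**Figure D1:**
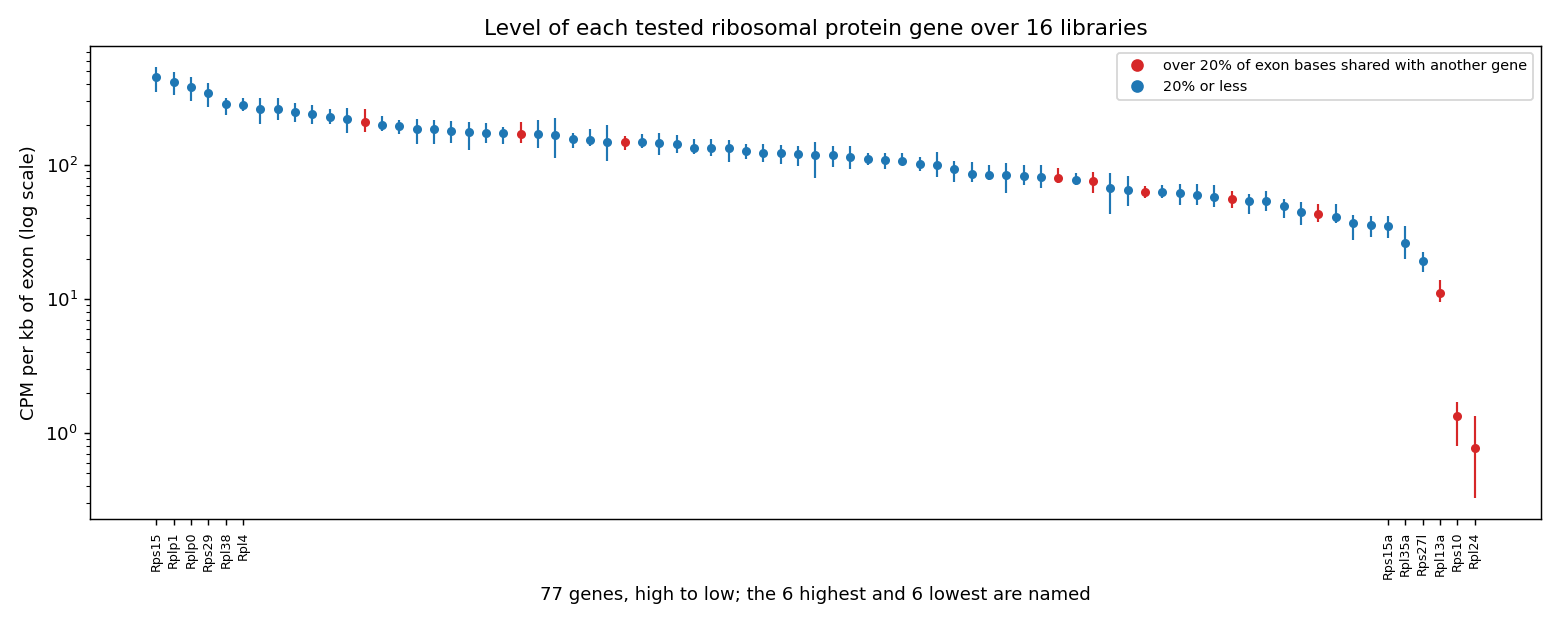
Mean CPM per kb of exon (log scale) of the 77 tested members over 16 libraries, ordered from high to low, with a bar from the lowest to the highest library and names for the 6 highest and 6 lowest. Most members lie between 26 and 453 CPM per kb, while Rpl13a, Rps10 and Rpl24, drawn in red because over 20% of their exon bases are shared with another gene, lie at 11.1, 1.33 and 0.769.

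The paralogs known from other tissues were nearly silent. Rpl10l, a copy of the X-linked Rpl10 that is used in the testis, had 0 counts in all 16 libraries, while Rpl10 had 4580 to 13590. Rpl3l, the striated-muscle copy of Rpl3, had 0 to 6 counts against 5069 to 15020 for Rpl3. Rpl39l, a testis copy of Rpl39, had 0 to 4 counts against 1750 to 5359 for Rpl39. These 3 paralogs were the members that could not be tested. Rps27l, a copy of Rps27 that responds to p53, had at least 207 counts in every library, against at least 2565 for Rps27. The 300 pseudogene models named after ribosomal proteins (symbols ending in -ps), which 59 members have, held 0.498% to 0.734% as many counts as the members, so few counts stood on these named models. Any copies under other symbols or without a symbol were not counted.

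Summed over the 77 members with TMM scaling, the female dual libraries had the lowest level of all, while by library totals male dual replicate 2 (15036 CPM) and male control replicate 2 (15554 CPM) lay below them (16387 and 15988 CPM). With TMM the female dual libraries summed to 15198.5 and 14897 CPM, against 18788 and 17851 CPM in female controls. The paternal females had 18304 and 17449 CPM and the maternal females 17317 and 17567 CPM, both close to the female controls. In males the control group had the lowest TMM-scaled mean, but by library totals the dual males (16130 and 15036 CPM) had a lower mean than the male controls (17961 and 15554 CPM). Unnamed gene IDs took 17.8% of the counts of male dual replicate 2 and 8.49% of male control replicate 2. Their part in this order was not tested. As a share of protein-coding counts, the members took 1.81% and 1.93% in dual males and 1.88% and 1.78% in male controls. By that share the female dual libraries (1.73% and 1.69%) were the lowest of all. With TMM the paternal males summed to 20383 and 17888 CPM, the maternal males to 20231 and 17935 CPM and the dual males to 16635 and 18010 CPM, against 17062 and 15911.5 CPM in male controls. The paternal and maternal males lay above both male controls, with replicate 1 well above replicate 2 in each of these groups, and the dual males overlapped the controls. The ratio of large- to small-subunit mRNA was 1.47 in both female dual libraries and 1.39 to 1.44 in the other 14, so the small-subunit sum was lower by more than the large-subunit sum there. In bulk tissue, fewer cells rich in these mRNAs and less mRNA per cell cannot be told apart.

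**Figure D2:**
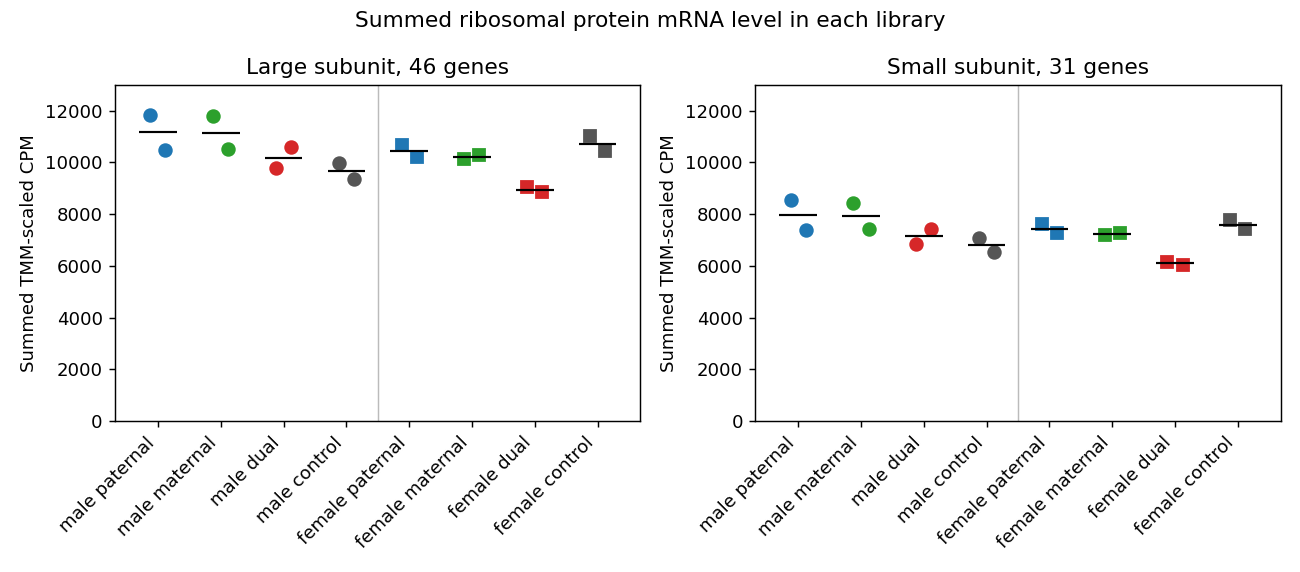
Summed TMM-scaled CPM of the 46 large-subunit and 31 small-subunit genes tested, 1 point per library with the group mean as a line, males left and females right. With this scaling the female dual libraries are the lowest in both panels, at group means of 8953 and 6095 CPM, against 10726 and 7594 CPM in female controls. For the sum of all members, library totals did not place them lowest, while the share of protein-coding counts did.

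Female dual cortex had lower levels of 38 of the 77 ribosomal protein mRNAs than female control cortex, and of no member higher. Genes of both subunits fell, 20 of the large and 18 of the small, by 0.22 to 0.66 on the log2 scale. The median over all 77 members was -0.25, a level 15.8% lower, against 0.02 over all genes tested and -0.08 over protein-coding genes. Among all genes tested, 5.64% were called lower and 9.34% higher in this comparison, so members were called lower more often than genes in general. All calls here are adjusted p-values under 0.05 in edgeR's quasi-likelihood test over 21543 genes.

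Members with small p-values came from different places of the ribosome. Rps14 (ENSMUSG00000024608), a protein of the small-subunit platform, had 202 and 193 CPM in female dual and 312 and 309 CPM in female control cortex. Rpl37 (ENSMUSG00000041841), a zinc-binding protein of the large subunit, had 75.2 and 72 CPM against 111 and 114 CPM. In both of these genes the female dual libraries lay well below the female controls, with replicates much closer to each other than to the other group. Their log2 fold changes with standard errors were -0.66 ± 0.11 for Rps14 (adjusted p = 0.000879) and -0.61 ± 0.10 for Rpl37 (adjusted p = 0.000901).

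Rps27 (ENSMUSG00000090733), a zinc-finger protein of the small subunit, had 117 and 120 CPM in female dual cortex, against 178 and 177 CPM in female control cortex. Rpl18 (ENSMUSG00000059070) of the large subunit had 144 and 143 CPM in female dual and 215 and 198 CPM in female control cortex. Rps29 (ENSMUSG00000034892) of the small subunit had 191 and 188 CPM against 272 and 285 CPM. Again no female dual library reached a female control. The log2 fold changes were -0.58 ± 0.10 for Rps27 (adjusted p = 0.000930), -0.52 ± 0.09 for Rpl18 (adjusted p = 0.00113) and -0.55 ± 0.10 for Rps29 (adjusted p = 0.00131). Over all members, 64 of the 77 had both female dual libraries below both female controls, where 23.1% of all genes tested did, and 3 had both above, where 30.3% of all genes did.

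The P-stalk proteins fell together in female dual cortex, with log2 fold changes of -0.45 ± 0.08 for Rplp0, -0.44 ± 0.08 for Rplp1 and -0.39 ± 0.11 for Rplp2. So did the laminin receptor precursor Rpsa (-0.43 ± 0.08), Rpl10a of the mobile stalk at the exit site (-0.37 ± 0.07), Rps6, the substrate of the S6 kinases (-0.37 ± 0.08), and Rps19, the protein most often mutated in human Diamond-Blackfan anaemia (-0.42 ± 0.08). Rpl5, which with Rpl11 and the small ribosomal RNA of the large subunit forms a particle that binds Mdm2, was called at -0.27 ± 0.09 (adjusted p = 0.0483) but shares 26.71% of its exon bases with other genes, and Rpl11 was not called (-0.16 ± 0.07, adjusted p = 0.127). These genes were picked for their known roles after their values were seen.

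Of the 39 members not called in female dual cortex, 30 had a fold change below 0 and 9 above it. The members with positive values and smallest p were Rps12 (0.08 ± 0.07, adjusted p = 0.453), a small-subunit protein, the X-linked Rpl36a (0.06 ± 0.08, adjusted p = 0.650) and Rps25 (0.06 ± 0.08, adjusted p = 0.679), which is needed for some kinds of internal initiation and shares 24.82% of its exon bases with other genes. Rps12 had 215 and 221 CPM in female dual cortex, against 208 and 204 CPM in female control cortex. Rpl36a had 88.9 and 89.5 CPM against 87.5 and 83.5 CPM. Rps25 had 176 and 174 CPM against 179 and 157 CPM. In Rps12 and Rpl36a the groups did not overlap although neither was called, and in Rps25 they did. Across the members, the female dual fold change had a Spearman rho of -0.27 with the mean level and of 0.05 with exon length (77 genes that share libraries, given as a description).

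**Figure D3:**
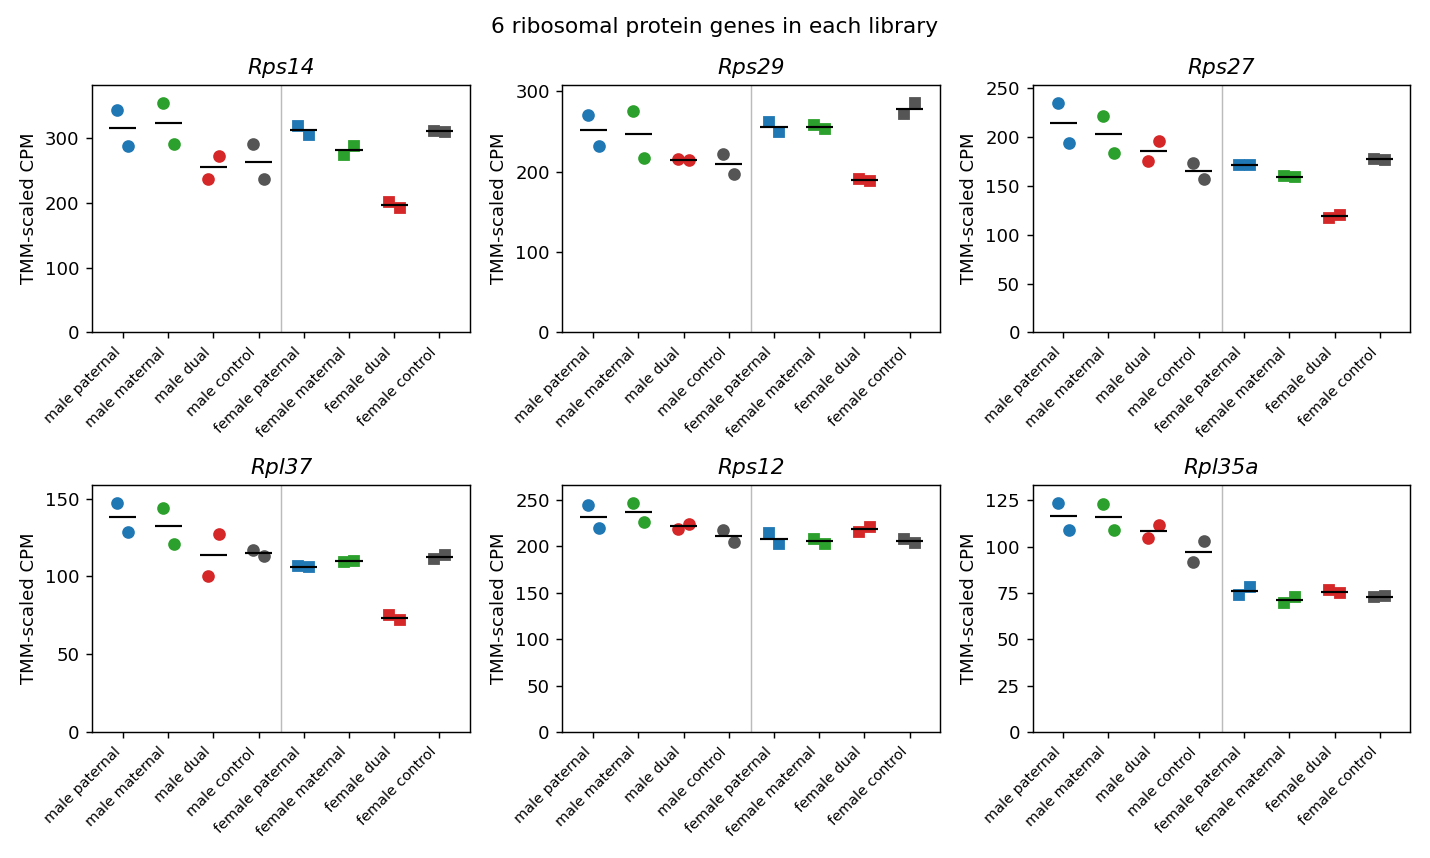
TMM-scaled CPM of 6 members in each of the 16 libraries, with the mean of each group as a line, males as circles on the left and females as squares on the right. In Rps14, Rps29, Rps27 and Rpl37 the female dual libraries lie below all other female libraries. Rps12 lies between 202 and 221 CPM in all females, and Rpl35a separates males (91.4 to 124 CPM) from females (69.4 to 78.4 CPM).

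The fall in female dual cortex went with the composition of these libraries. Their share of TEC and sense-intronic counts was the highest of all, as given above, and with that share as a covariate 0 members were called by edgeR's test and the median was 0.31. The 5 genes above then stood between -0.13 (Rps29) and 0.39 (Rps14). Because the share in the female dual libraries lay outside the range of the other 14, group and share cannot be told apart in that fit. When protein-coding genes alone were scaled and tested, 24 members were called lower with a median of -0.17, and with library totals in place of TMM 20 members with a median of -0.17. As a share of protein-coding counts, the members took 1.73% and 1.69% in female dual libraries, against 1.95% in each female control. Without female dual replicate 1 the count was 24 and without female dual replicate 2 it was 19. Markers of red cells moved the same way. Their 9 genes, none of them at 0 in all libraries, summed to 370 to 374 CPM in female dual and 542 to 652 CPM in female control cortex, and 3 of the 9 were called lower (Hbb-bs, Hbb-y and Hba-x). Low values of Hbb-y and Hba-x were not particular to female dual cortex. Against the same controls they stood at -2.66 and -1.45 in paternal females and at -2.86 and -1.56 in maternal females, without being called. Hbb-bs stood at 0.58 in paternal and 0.10 in maternal females. The part of red cells in the result was not tested. Of other cell types, 2 of 8 thalamic and 1 of 9 vascular markers were called lower, 1 of 10 meningeal markers higher, 1 of 13 neuronal markers each way, and 0 of 9 microglial, 9 cortical and 12 progenitor markers. The 2 thalamic markers, Prox1 (-0.44) and Lhx9 (-0.82), were not particular to female dual cortex. Against the same controls they stood at -0.65 and -0.92 in paternal females and at -0.50 and -0.87 in maternal females, without being called. The female controls differed widely in meningeal markers, which summed to 238 to 241 CPM in female dual and 88.1 to 419 CPM in female control cortex, and in vascular markers, at 296 to 333 CPM in female dual and 293 to 437 CPM in female control cortex. Leaving out either female control moved the count of 38 by less than 1.5 times.

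**Figure D4:**
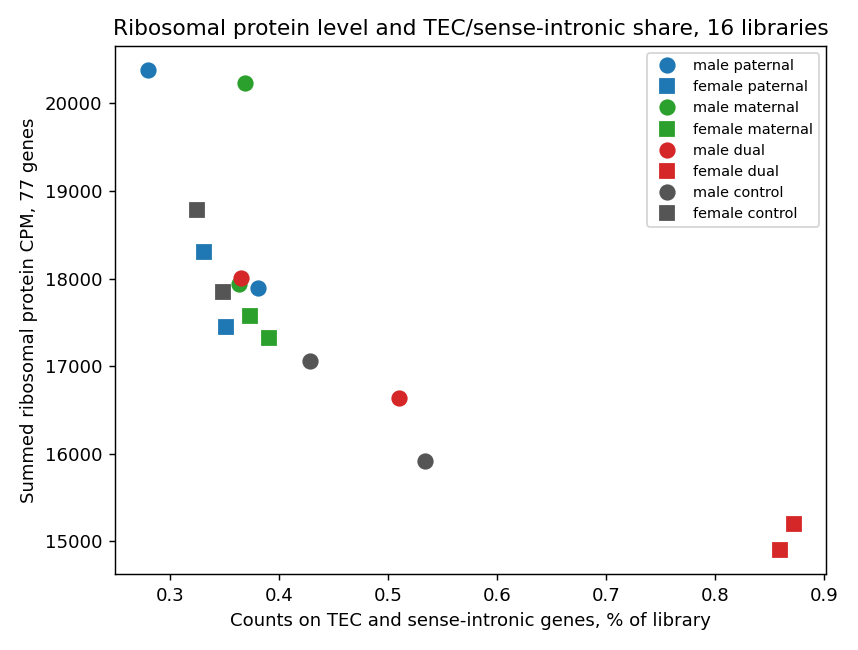
Summed CPM of the 77 tested members against the percentage of counts on TEC and sense-intronic gene models, 1 point per library. The female dual libraries lie alone at shares of 0.872% and 0.86% and sums of 15198.5 and 14897 CPM, and the other 14 libraries lie at shares of 0.28% to 0.534% with sums of 15911.5 to 20383 CPM.

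In males, dual exposure left 0 members called in either direction in edgeR's test, with 9 at an unadjusted p under 0.05, all higher, and 0 called by DESeq2. At that p 1.88% of all genes tested were higher and 2.99% lower. By adjusted p, edgeR called 0 of all 21543 genes in this comparison, so the 0 is not particular to the members. The median was 0.06 by TMM and -0.11 by library totals, where the median of all genes was itself -0.17. The members of smallest p with higher values were Rpl17 (0.25 ± 0.08), Rpl35 (0.21 ± 0.08) and Rpl22 (0.18 ± 0.07), each at an adjusted p of 0.942. Rpl17, which lies at the exit of the peptide tunnel, had 303 and 337 CPM in male dual cortex, against 270.1 and 267 CPM in male control cortex. Both male dual libraries lay above both male controls in 24 of the 77 members, against 18% of all genes tested, and below them in 2, against 19.1%. Among the negative values, Rps10 (-0.46 ± 0.29, from 24 to 116 counts per library) and Rpl23a (-0.10 ± 0.12) had the smallest p. None of these differences passed the test, whose spread is estimated from all 16 libraries.

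The effect of dual exposure differed between the sexes in 17 members, all with a higher male than female effect, where 0.733% of all genes tested were called in that direction and 2.76% in the other. The interaction term of edgeR's test, male minus female effect, had a median of 0.34 over the 77 members. It was 0.75 ± 0.14 for Rps27 (adjusted p = 0.0101) and 0.50 ± 0.11 for Rpsa (adjusted p = 0.0201). For Rpl8, a protein near the catalytic centre, it was 0.60 ± 0.13 (adjusted p = 0.0205), for Rpl18 0.59 ± 0.13 (adjusted p = 0.0221) and for Rpl34 0.54 ± 0.13 (adjusted p = 0.0274). Rps27 had 176 and 196 CPM in male dual and 173 and 157 CPM in male control cortex, where the female dual libraries lay at 117 and 120 CPM. All 17 genes were among the 38 called in females. The count depended on single libraries. It was 0 without male control replicate 2 or male dual replicate 2, 1 without female dual replicate 2 and 4 without female dual replicate 1. It was 9 without female maternal replicate 2, 10 without female maternal replicate 1, 11 without female paternal replicate 2 and 39 without female control replicate 2. It was also 0 with library totals, where the median was 0.08 and that of all genes -0.28, 1 with protein-coding genes alone and 0 with the TEC and sense-intronic share as covariate, where the median was -0.30.

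Averaged over both sexes, 7 members were lower in dual than in control cortex and none higher (0.641% of all genes tested were called lower, 2.72% higher). The median was -0.08, and 63 of the 77 values were below 0. Among the 7 were Rps14 (-0.35 ± 0.08, adjusted p = 0.0176), Rplp1 (-0.25 ± 0.06, adjusted p = 0.0212), Rpl37 (-0.31 ± 0.07, adjusted p = 0.0239) and Rpl10a (-0.21 ± 0.05, adjusted p = 0.0433). Rplp1 had 181 and 183 CPM in male dual and 178 and 165 CPM in female dual cortex, against 197 and 184 CPM in male and 220 and 245 CPM in female control cortex. It was below every control in all 4 dual libraries, though in males by less than the distance between the controls. All 7 genes were also called in females alone. In males alone the values of these 4 named genes were -0.07 to -0.01. The positive values of smallest p were those of Rpl17 (0.15 ± 0.06), Rpl35a (0.10 ± 0.06) and Rps12 (0.08 ± 0.05), none of them called. The count of 7 became 0 without male control replicate 1, male dual replicate 1 or female dual replicate 2, 2 without female dual replicate 1, 3 without female paternal replicate 2 or either female maternal library, 4 without female paternal replicate 1, 12 without either male maternal library or female control replicate 1, and 13 when female control replicate 2 was left out. The call count was 0 with protein-coding genes alone, with an additive model of sex and exposure and with the TEC and sense-intronic share as covariate.

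Paternal exposure was tested to learn whether drinking by the father alone changed the fetal cortex, and no ribosomal protein gene was called in either direction over both sexes. In edgeR's test 14 members had an unadjusted p under 0.05, all higher, and DESeq2 called 0. At that p 3.61% of all genes tested were higher and 4.85% lower. By adjusted p, edgeR called 0 of all 21543 genes for paternal exposure over both sexes. The same held in males, in females and in the sex difference, so the 0 is not particular to the members. The median was 0.09, with 73 members above 0. Rpl22 (0.18 ± 0.05, adjusted p = 0.405), an RNA-binding protein of the large subunit, Rpl17 (0.20 ± 0.06, adjusted p = 0.421) and Rps24 (0.15 ± 0.05, adjusted p = 0.470) had the smallest p. Rpl22 had 209.5 and 188 CPM in male paternal and 177 and 172 CPM in female paternal cortex, against 164 and 163 CPM in male and 171 and 156 CPM in female control cortex. Both male paternal libraries lay above the male controls, and the female paternal libraries lay just above theirs. The values of smallest p below 0 were those of Rpl24 and Rplp2, at -0.17 and -0.03. Without female control replicate 1, 2 members were called higher.

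The positive values came from males. In males the median of the paternal fold changes was 0.22, 75 members were above 0, and 52 had an unadjusted p under 0.05, all higher, but 0 passed by edgeR or DESeq2. At that p 4.19% of all genes tested were higher and 6.25% lower. Rps27 (0.38 ± 0.10), Rpl22 (0.28 ± 0.07) and Rps9 (0.27 ± 0.08) had the smallest p, with adjusted p-values of 0.337, 0.337 and 0.349. Rps27 had 235 and 194 CPM in male paternal cortex, against 173 and 157 CPM in male control cortex. Both paternal libraries exceeded both controls in 59 of the 77 members, where 20.6% of all genes tested did, and both lay below in 0, where 23.5% did. Paternal replicate 1 lay far above replicate 2 in Rps27, and both exceeded the controls. Without male paternal replicate 1, whose unnamed gene IDs took 14.2% of the counts, the male median was 0.12, and by library totals it was 0.08 where the median of all genes was -0.14. The male paternal libraries also had lower TEC and sense-intronic shares (0.28% and 0.381%) than the male controls (0.429% and 0.534%), and with that share as a covariate the male median was 0.04. The part of that share in the result was not tested beyond this fit. With no filter on low counts 4 members were called higher in paternal males.

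In females the paternal median was -0.04, with 22 members above 0 and 0 called. No member had an unadjusted p under 0.05 (4.87% of all genes were higher and 3.02% lower at that p) and DESeq2 called 0 as well. Both paternal libraries lay below both female controls in 22 members, against 18% of all genes, and above them in 7, against 16.2%. Rpl17 (0.13 ± 0.08) and Rpl34 (0.11 ± 0.09) had the smallest p among positive values, and Rplp2 (-0.21 ± 0.10) and Rpl18 (-0.17 ± 0.09) among negative ones. The male minus female difference of the paternal effect was called in 0 members by edgeR and by DESeq2, with 34 members at an unadjusted p under 0.05, all positive (4.99% of all genes were positive and 5.78% negative at that p). The median was 0.23, and 0.08 by library totals, where that of all genes was -0.17. It was 0.45 ± 0.14 for Rps28 (adjusted p = 0.340), 0.38 ± 0.12 for Rpl37a (adjusted p = 0.340) and 0.42 ± 0.14 for Rps27 (adjusted p = 0.351). It was called in 3 members without female control replicate 2, and in 3 with no filter on low counts.

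Maternal exposure gave a similar layout of values against the same controls. By adjusted p, edgeR called 0 of all 21543 genes over both sexes, in males, in females and in the sex difference of the maternal effect. Over both sexes 0 members were called by edgeR or DESeq2, 5 had an unadjusted p under 0.05, all higher (1.47% of all genes were higher and 2.32% lower at that p), and the median was 0.07. Rpl22 (0.14 ± 0.05), Rps15a (0.13 ± 0.05) and Rpl35 (0.12 ± 0.06) had the smallest p, each at an adjusted p of 0.998. In males the median was 0.22, 52 members had an unadjusted p under 0.05, all higher (3.39% of all genes were higher and 4.53% lower at that p), and 0 were called by either tool. The leading genes in males were Rps9 (0.31 ± 0.08), Rpl22 (0.27 ± 0.07) and Rpl35 (0.29 ± 0.08), each at an adjusted p of 0.590. Rps9 had 421 and 389 CPM in male maternal cortex, against 332 and 323 CPM in male control cortex. Both maternal libraries lay above both male controls in 65 members, where 19.5% of all genes did, and below them in 1, where 20.6% did. Without male maternal replicate 1 the male median was 0.12, and with the TEC and sense-intronic share as covariate it was 0.08. With no filter on low counts 3 members were called higher in maternal males.

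In females the maternal median was -0.07, with 13 members above 0, and 0 were called by edgeR or DESeq2. The 2 members at an unadjusted p under 0.05, both lower (1.67% of all genes were lower and 3.04% higher at that p), were Rpl18 (-0.21 ± 0.09) and Rpl11 (-0.15 ± 0.07), each at an adjusted p of 0.980. Both female maternal libraries lay below both controls in 38 of the 77 members, where 15.7% of all genes did, and above them in 1, where 15.9% did. Rpl18 had 181 and 178 CPM in female maternal cortex, against 215 and 198 CPM in female control cortex. The sex difference of the maternal effect was called in 0 members by either tool, with 45 at an unadjusted p under 0.05, all positive (4.6% of all genes were positive and 5.25% negative at that p). The smallest p-values were those of Rps9 (0.39 ± 0.11), Rpl19 (0.37 ± 0.10) and Rpl37a (0.42 ± 0.12), each at an adjusted p of 0.418. Without female control replicate 2, or with no filter on low counts, 6 members were called.

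**Figure D5:**
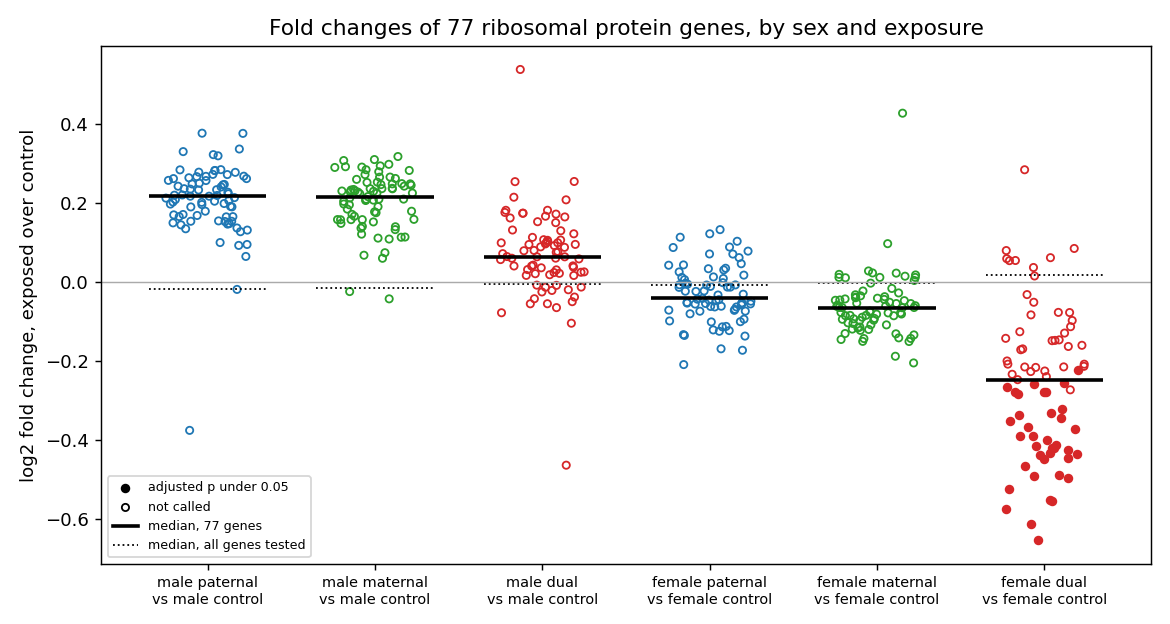
log2 fold changes of the 77 tested members for each exposure against the control of the same sex, 1 point per gene, filled where the adjusted p was under 0.05. The 3 male comparisons share controls, as do the 3 female ones. Thick lines give the members' median, 0.22, 0.22 and 0.06 in males and -0.04, -0.07 and -0.25 in females (by library totals the male dual median was -0.11), and filled points occur in female dual cortex alone.

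Set against the single exposures rather than the controls, dual exposure gave lower levels of ribosomal protein mRNA. Averaged over sexes, 32 members were lower in dual than in paternal cortex and none higher (2.16% of all genes tested were lower and 6.65% higher), with a median of -0.17. Against maternal cortex 30 members were lower and none higher (1.34% of all genes were lower and 4.42% higher), with a median of -0.15. The comparisons share the dual libraries, and 29 members were called in both, 90.6% of the first list and 96.7% of the second. Rps14 had 237 and 273 CPM in male dual and 202 and 193 CPM in female dual cortex, against 343 and 288 CPM in male paternal, 319 and 306 CPM in female paternal, 354 and 292 CPM in male maternal and 275 and 289 CPM in female maternal cortex. All 4 dual libraries lay below all 8 singly exposed ones, male dual replicate 2 by the smallest distance.

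Against paternal cortex the members called lower included Rps14 (-0.49 ± 0.08), Rplp1 (-0.32 ± 0.06), Rps7 (-0.34 ± 0.06), Rpl37 (-0.40 ± 0.07) and Rps27 (-0.37 ± 0.07), with adjusted p-values of 0.000850 to 0.00285. Against maternal cortex they included Rplp1 (-0.32 ± 0.06), Rps14 (-0.43 ± 0.08), Rpl10a (-0.30 ± 0.05), Rpl37 (-0.40 ± 0.07) and Rps2 (-0.29 ± 0.06), a protein of the mRNA entry channel, with adjusted p-values of 0.00307 to 0.00691. No member was called higher, and the positive values of smallest p were those of Rpl24 in both comparisons (0.58 ± 0.38 and 0.22 ± 0.37), from 6 to 39 counts. The count against paternal cortex was 14 without male paternal replicate 1 or male dual replicate 1, 17 without female paternal replicate 1 and 20 without female dual replicate 2. The count against maternal cortex was 6 without male dual replicate 1, 9 without male maternal replicate 1, 18 and 12 without female maternal replicates 1 and 2, and 11 without female dual replicate 2. With the TEC and sense-intronic share as covariate 0 members were called in either comparison, with medians of 0.17 and 0.14. With protein-coding genes alone 12 were lower than in paternal and 4 lower than in maternal cortex, and with an additive model 19 and 11.

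The dual effect, dual over control, was also lower than both single effects added together. This difference was called in 25 members, all negative (0.724% of all genes were called in that direction and 3.49% in the other), and the median was -0.25. It was -0.56 ± 0.11 for Rps14 (adjusted p = 0.00796) and -0.44 ± 0.09 for Rps21 (adjusted p = 0.00801). Rplp1 (-0.39 ± 0.08), Rps7 (-0.42 ± 0.09) and Rpl10a (-0.36 ± 0.08) followed at adjusted p-values of 0.0107 to 0.0116. In this contrast the controls enter with a positive sign, beside the dual libraries. It averages the sexes and was not tested within each. In males the medians against control were 0.22 for paternal, 0.22 for maternal and 0.06 for dual exposure, so the raised single effects enter there. In females they were -0.04, -0.07 and -0.25. The contrast thus does not measure the female dual fall alone. The count was 8 without male control replicate 2, 10 without male dual replicate 1, 12 without male paternal replicate 1, 13 without male maternal replicate 1, female paternal replicate 1 or female dual replicate 2, 16 and 14 without female maternal replicates 1 and 2, and 42 without female control replicate 1. It was 2 with an additive model, 12 with library totals and 0 with protein-coding genes alone or with the TEC and sense-intronic share as covariate.

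Between the sexes, averaged over the 4 exposures, 11 members were higher in males and none lower (0.404% of all genes tested were higher in males, 0.473% lower). Rpl35a, a large-subunit protein, differed most. It had 91.4, 109 and 124 CPM as the lowest, median and highest of the 8 male libraries, against 69.4, 73.6 and 78.4 CPM in the 8 female libraries, so the sexes did not overlap. The male minus female difference of Rpl35a was 0.56 ± 0.04 on the log2 scale (adjusted p = 4.77e-07). Rps21 (0.33 ± 0.04, adjusted p = 0.000307), Rpl37 (0.33 ± 0.05, adjusted p = 0.00249), Rps27 (0.30 ± 0.05, adjusted p = 0.00316) and Rpl36a (0.24 ± 0.04, adjusted p = 0.00422) came next. In Rps21, Rpl37 and Rps27 the ranges of the sexes overlapped. The average over exposures includes the female dual libraries, which held the lowest female values of Rpl37 and Rps27. Among the controls alone, Rps27 was higher in females than in males (CPM given above). The sex difference within controls was not tested.

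Of the 4 members on the X chromosome, Rpl36a was the one called. It had 95.4, 103 and 116 CPM as the lowest, median and highest male library, against 81, 88.2 and 89.5 CPM in females, with no overlap. Rps4x (0.10 ± 0.05, adjusted p = 0.444), Rpl10 (0.04 ± 0.04, adjusted p = 0.720) and Rpl39 (-0.08 ± 0.05, adjusted p = 0.564) were not called, and their ranges overlapped. Rpl36a had the higher level in the sex with a single X chromosome. The largest negative differences by p were those of Rps28 (-0.17 ± 0.05, adjusted p = 0.142), Rpl41 (-0.12 ± 0.05, adjusted p = 0.291) and Rpl38 (-0.10 ± 0.04, adjusted p = 0.311).

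Sex went with library depth in these data, and sex and depth cannot be told apart. The median of the male minus female differences was 0.06 by TMM but -0.06 by library totals, where the median of all genes was -0.12, and 4 members were then called higher and 4 lower in males. With the TEC and sense-intronic share as covariate 1 member, Rpl35a, was called higher. The count of 11 became 7 without male control replicate 1, male maternal replicate 1 or female maternal replicate 2, 6 without male paternal replicate 1 or female paternal replicate 2, and 5 without male dual replicate 2 or female maternal replicate 1. Rps28 was called lower without male maternal replicate 1 or female control replicate 1. Rpl35a was called under every alternative tried.

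Other genes of ribosome production were looked at in lists of known function. Of 8 ribosomal proteins and paralogs with other symbols, 4 fell in female dual cortex: Rack1 (-0.47 ± 0.10), a scaffold protein on the head of the small subunit, Fau (-0.40 ± 0.08), which encodes a ubiquitin-like protein fused to a small-subunit protein, Rps3a1 (-0.29 ± 0.09) and Rps27rt (-0.96 ± 0.28), a low copy of Rps27 at 1.79 and 1.93 CPM in female dual and 4.1 and 3.13 CPM in female control cortex. The list's median was -0.20. Rack1 had 292 and 285 CPM in female dual cortex, against 419 and 381 CPM in female control cortex, so the groups did not overlap.

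Of 20 translation factors and related genes, 7 fell in female dual cortex and none rose, and all 20 values were below 0 with a median of -0.16. Those of smallest p were Eif3l (-0.42 ± 0.08) and Eif3f (-0.37 ± 0.09), subunits of the initiation factor that binds the small subunit, the elongation factor Eef2 (-0.36 ± 0.07) and the X-linked Eif2s3x (-0.33 ± 0.09). Eef2 had 1674 and 1599 CPM in female dual cortex, against 2171 and 2027 CPM in female control cortex. The sex difference of the dual effect was called for 3 of the 20, Eif3l (0.50 ± 0.11), Eef2 (0.43 ± 0.11) and Eif2s3x (0.50 ± 0.13). Of all genes tested, 0.733% were called in that direction. The count of members called in this contrast depended on single libraries and on scaling, as given above.

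Among 36 ribosome assembly and rRNA processing factors, 7 fell and none rose in female dual cortex, with a median of -0.11. Eif6 (-0.50 ± 0.12), which keeps new large subunits from joining small ones too early, Nol6 (-0.32 ± 0.08), Bysl (-0.36 ± 0.10) and Nop2 (-0.32 ± 0.09) had the smallest p. Among 13 RNA polymerase I subunits and factors, 1 fell, Polr1c (-0.30 ± 0.09), with a median of -0.14. Among 13 mTORC1 and Myc genes, 4 fell and none rose, with a median of -0.06. They were Tsc2 (-0.25 ± 0.06), an inhibitor of mTORC1, Eif4ebp2 (-0.31 ± 0.09), a repressor of cap-dependent initiation, Rptor (-0.24 ± 0.07), the subunit that recruits mTORC1 substrates, and Akt1s1 (-0.35 ± 0.10), an inhibitor of mTORC1. Genes that act for and against mTORC1 were thus among those that fell. Their shares stand beside the 5.64% of all genes tested that were lower in this comparison. In paternal and maternal cortex against control 0 genes of these 5 lists were called, by edgeR over both sexes, and in males with dual exposure 0 were called. Of all genes tested, 0 were called in those comparisons.

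The members varied together across libraries. The median Pearson r between pairs of the 77 members was 0.72 over the 16 libraries, and 95.9% of the pairs were above 0 (a description, as all pairs share library, depth and scaling). The members with the lowest median r to the others were Rpl24 (-0.20), Rps10 (0.05) and Rps27l (0.25), all of low count. They were followed by Rpl23a (0.33), which shares exon bases with Tlcd1, and then by Rpl35a (0.33) and Rpl36a (0.36), with Rps25 (0.41) and Rps12 (0.42) also low, all of them well counted. Rpl35a and Rpl36a were called between the sexes, and Rpl23a, Rpl35a, Rpl36a, Rps25 and Rps12 all had female dual fold changes above 0. Between the sexes, the dual fold changes of the members had a Spearman rho of 0.28 (77 genes, male against female dual, from separate libraries and controls).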

How the data were processed

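The deposited tables hold counts of reads per gene, 1 table per library, not normalized by the authors. Reads were handled with Trimmomatic, STAR and featureCounts against GRCm39 (mm39), per the submitters' processing notes. For tool versions, annotation release, strand setting and multimapping reads, the entry is: not given in the sources used here. RNA was extracted with the Qiagen AllPrep kit and libraries were made with the Illumina TruSeq Standard Total RNA kit from randomized samples, per the labels. No per-sample column was left unused.

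Members, gene lists and tests were chosen with earlier results of these data known. Gene names, classes, exon lengths and overlaps were taken from GENCODE M21 on GRCm38, another build than that of the counts, so no gene coordinates are given. Start sequences came from RefSeq (GRCm38.p6). Genes were kept by filterByExpr (minimum count 10, minimum total 15), which left 21543. They were tested by edgeR's quasi-likelihood test (edgeR 4.0.16 with limma 3.58.1 in R 4.3.3), two-sided, with TMM scaling and 8 group means (8 residual degrees of freedom, median prior 8.81), and Benjamini-Hochberg adjustment over all genes tested. Comparisons over both sexes average the male and female effects. CPM values are TMM-scaled, and fold changes are edgeR's fitted log2 values with their standard errors. The procedure was tested on simulated data.

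In each comparison the text names every member that passed, up to the 6 of smallest p in each direction, and where fewer than 3 passed, the 3 of smallest p. It also names the 6 highest and 6 lowest levels, paralogs and X-linked members. Some genes that this rule picks are not reported here. Of each list of other genes it names the members that passed, up to 4 of smallest p. The results were recomputed with DESeq2 1.42.0, with its size factors inside edgeR, by library totals, over protein-coding genes alone, unfiltered, with replicate as a block, with sex and exposure additive, with the TEC and sense-intronic share as covariate, and with libraries left out. Replicates differed by more than counting noise in every group, with a median squared difference of 1.58 to 4.63 in units of counting error, where noise alone gives 0.455. Ranges of counts and shares cover these libraries alone.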

Additional observations from a re-analysis of the deposited data

Results flagged for a closer look

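In 17 members the dual effect differed between the sexes by edgeR's interaction test, male minus female effect. Among them were Rps27 (0.75), Rpsa (0.50), Rpl8 (0.60), Rpl18 (0.59) and Rpl34 (0.54), on the log2 scale.

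Of 56 sets of 4 libraries of 1 exposure, looked at for 14 genes and sums, 2 held a library far from the other 3 by Dixon's criterion, where chance gives about 1 in 20. Rps2 was at 469.5 CPM in male maternal replicate 1, against 418 to 419 CPM in the other maternal libraries. Rpl10a was at 119.9 CPM in male control replicate 2, against 135 to 138 CPM in the other controls.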

How the results depend on the processing

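By library totals 20 members were called lower in female dual cortex (median -0.17), 0 in the sex difference of the dual effect (median 0.084), 12 against the sum of single effects, and 4 higher and 4 lower in males than in females (median -0.057). The medians were then 0.084 for paternal males, -0.11 for dual males and 0.082 for the sex difference of the paternal effect. With protein-coding genes alone the counts were 0 for dual over both sexes, 24 for female dual (median -0.17), 1 for its sex difference (median 0.26), 12 against paternal, 4 against maternal and 0 against the sum. DESeq2 called 11 for dual over both sexes. Without a filter the counts were 22 for dual, 4 and 3 higher in paternal and maternal males, 3, 6 and 32 for the paternal, maternal and dual sex differences, 40 against the sum, and 1 lower in males than in females. An additive model gave 0 for dual, 19 against paternal, 11 against maternal, 2 against the sum and 7 between the sexes.

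With the TEC and sense-intronic share as covariate, 0 members were called for dual over both sexes (median 0.16), female dual (0.31), its sex difference (-0.30), against paternal (0.17), against maternal (0.14) and against the sum (0.14), and 1 between the sexes (-0.022). Medians were 0.0095 for paternal, 0.044 and 0.083 for paternal and maternal males, and 0.069 and 0.10 for their sex differences. Signs turned for dual in Rps14 (0.13), Rpl37 (0.074) and Rpl10a (0.010), and for female dual in Rps14 (0.39), Rpl37 (0.24), Rps27 (0.21) and Rpl18 (0.17). They turned in the sex difference for Rps27 (-0.10), Rpsa (-0.033), Rpl8 (-0.22), Rpl18 (-0.17) and Rpl34 (-0.38), and against paternal for Rps14 (0.14), Rps7 (0.067), Rpl37 (0.10) and Rps27 (0.11). They also turned against maternal for Rps14 (0.12), Rpl37 (0.047) and Rps2 (0.0098), and against the sum for Rps14 (0.13) and Rps7 (0.039). Since the female dual libraries hold the highest shares, group and share cannot be told apart there. For the other changes the cause was not tested.

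Without male paternal replicate 1 and male dual replicate 2, an alternative chosen after seeing the data, 0 members were called in the sex difference of the dual effect, 13 against paternal, 12 against the sum and 3 between the sexes. The medians were 0.13 for paternal males and 0.15 for their sex difference. Leaving out 1 library at a time gave 0 to 13 calls for dual, 19 to 46 for female dual (median -0.30 to -0.18), 0 to 39 for its sex difference (0.29 to 0.43), 14 to 42 against paternal, 6 to 35 against maternal, 8 to 42 against the sum (-0.34 to -0.20), and 5 to 16 higher and 0 to 1 lower between the sexes. It gave 0 to 2 higher for paternal, and 0 to 3 (median 0.15 to 0.33) and 0 to 6 (0.20 to 0.37) for the paternal and maternal sex differences. Medians were 0.12 to 0.30 in paternal males and 0.12 to 0.31 in maternal males.

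The replicate numbers did not pair the libraries: over 28 pairs of groups the correlation of same-numbered libraries was -0.21 to 0.25, with 2 pairs over 0.1. With the replicate block 10 members were called for dual over both sexes, 39 for female dual and 19 for its sex difference. The block and DESeq2's size factors in edgeR moved no count of calls by over 1.5 times. Leaving out both female dual libraries was run for the comparisons that do not need them, in which 0 members were called with and without those libraries. Over all alternatives, leaving out libraries included, 1089 recomputed counts, medians and summed levels stayed within set limits of the reported value, and 119 did not. The limits were 1.5 times a count, the replicate SD of the members' median (0.076) and, for a summed level, the SD of its exposure group. Counts of 0 that stayed 0 are among the 1089, so the tally does not measure how stable the calls were.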
